A study of Mus musculus with 11 samples.

Results

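Glycolysis, the pentose phosphate pathway and the tricarboxylic acid (TCA) cycle were followed through 43 genes in CD34+ and CD34- keratinocyte fractions of mouse back skin. The genes were chosen by name, and each was read from the probe set that carries its symbol alone and is brightest on average over the 11 arrays. Of the 43 genes, 39 had such a probe set, out of 18193 genes that had one on the array. Gapdh was measured by control probe sets of the manufacturer, and Gpi1, Eno1 and G6pdx have no value here because no probe set carried their symbol alone. Slc16a3 was among the dimmest 40% of genes, which were left out of the test, so that 38 genes were tested. The mean signal of the 38 was the only thing that filter used.

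Both groups came from K5-myrAkt(L84) mice, in which the keratin 5 promoter drives a membrane-targeted, active form of the kinase Akt in basal epidermal and follicle cells. The keratinocytes were incubated with an antibody against CD34, a surface marker of the hair follicle bulge, and parted with magnetic beads, which left 5 CD34+ and 6 CD34- arrays. Every sample carried the transgene, and no array of mice without it was analysed here. Total RNA was hybridised to 1-colour Affymetrix arrays after biotin labelling. The series design text names the CD34- group only as cells, whereas its cell type label also names follicle stem cells, so these cells are called CD34- here. Neither age, hair cycle stage nor scan date is in the labels, and nothing in them ties an array to a mouse, so a p-value here reflects only how these samples scatter, which may be technical. Each value is a bulk measurement, in which fewer cells of a type and less RNA per cell cannot be told apart.

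Glycolysis turns glucose into pyruvate and yields a little ATP. Pyruvate is either reduced to lactate and exported, or enters mitochondria through pyruvate dehydrogenase and is oxidised in the TCA cycle, while the pentose phosphate pathway branches off early and supplies NADPH and ribose. Many of the steps have several isoenzymes from separate genes, and hair follicle cells and epidermal keratinocytes are known for a high use of glucose with release of lactate. Akt signalling is known to raise glucose uptake and hexokinase activity in many cells.

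Across the arrays the labels were borne out by Cd34 itself, whose log2 signal was 10.54 to 12.92 on the CD34+ arrays and 2.00 to 5.50 on the CD34- arrays. Of the 8 keratinocyte genes listed, all were tested, and their summed signal, as log2 of the sum of linear signals, was 16.90 to 17.48 on CD34+ arrays and 16.92 to 17.31 on CD34- arrays. They moved both ways: Dsp, a desmosomal protein, was higher at 0.50 (limma adjusted p = 0.0179), Itga6, an integrin of basal cells, was lower at -0.53 (limma adjusted p = 0.00214), and so was Trp63, a transcription factor of basal cells that is named after its value was seen, at -0.38 (limma adjusted p = 0.04). All 11 listed bulge genes were called higher in CD34+ cells, against 12.4% of all tested genes, first among them Lgr5, a receptor of follicle stem cells. That list was chosen with earlier results of these data known, so its count is no independent test of the labels. Fgf18 and Lhx2, with CD34- means of 4.67 and 6.50, were bright enough for the test only through the CD34+ arrays. The correlation between arrays of a group was 0.865 to 0.976 for CD34+ and 0.965 to 0.983 for CD34-. The RNA of the groups also differed in a length control: the 3-prime minus 5-prime log2 signal of actin was 2.90 to 5.24 on CD34+ arrays and 2.19 to 2.76 on CD34- arrays, without overlap. With the deposited scaling the median of an array lay between 6.71 and 7.23 on CD34+ arrays and between 6.36 and 6.51 on CD34- arrays.

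Promoter sequence is shown for 4 genes whose signals moved, because glycolytic genes are textbook targets of hypoxia-inducible factors and of E-box factors, and the results below run in opposite directions for them. Pgk1, Ldha and Pgam1 were lower in CD34+ cells, and Hk2 was higher. Each stretch is 150 bases long and comes from RefSeq on build GRCm38.p6, written 5′ to 3′ on the strand of the gene. Capitals mark each match to ACGTG or GCGTG on either strand, the core letters of the hypoxia response element, and 2 such matches on opposite strands overlap wherever the E-box CACGTG occurs.
Pgk1, chrX:106186950-106187099, plus strand: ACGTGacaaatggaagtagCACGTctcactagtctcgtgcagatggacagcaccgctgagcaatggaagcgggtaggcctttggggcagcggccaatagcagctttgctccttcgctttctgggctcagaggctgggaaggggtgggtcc
Ldha, chr7:46845654-46845803, plus strand: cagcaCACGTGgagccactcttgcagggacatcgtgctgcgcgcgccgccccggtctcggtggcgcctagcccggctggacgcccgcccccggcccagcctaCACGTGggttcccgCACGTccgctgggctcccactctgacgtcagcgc
Pgam1, chr19:41911721-41911870, plus strand: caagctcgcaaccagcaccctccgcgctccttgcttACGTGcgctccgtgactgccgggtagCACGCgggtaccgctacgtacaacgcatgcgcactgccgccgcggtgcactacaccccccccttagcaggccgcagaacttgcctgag
Hk2, chr6:82774455-82774604, minus strand: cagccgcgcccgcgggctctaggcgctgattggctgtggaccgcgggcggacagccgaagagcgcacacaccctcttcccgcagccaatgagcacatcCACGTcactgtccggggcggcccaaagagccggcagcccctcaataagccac

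The Ldha stretch holds 5 matches, those of Pgk1 and Pgam1 hold 2 each, and that of Hk2 holds 1. Ldha has 2 windows, and the one with more matches before the start was shown. Upstream of the stretches, Hk2 holds a further ACGTG at -226 and Pgam1 a further GCGTG at -175, so the counts depend on the stretch chosen. Over the full windows, from 250 bases before to 50 bases after each start, 36 of the 41 pathway genes with a window (87.8%) held ACGTG or GCGTG on either strand. A gene was counted if any of its windows held a match, and the share was 46.7% of all genes with a window and 68.4% of the tested genes that have a window. It was 9 of 10 (90%) for pathway genes that were lower in CD34+ cells, 5 of 5 for those that were higher, and 18 of 21 (85.7%) for those that were not called. ACGTG alone was in 20 of the 41 (48.8%), against 29.7% of tested genes, and CACGTG in 7 of 41 (17.1%), against 12%. A match describes the letters and is no evidence of binding, and Slc2a3 and Idh3a had no window.

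In CD34+ cells, 5 of the 38 tested genes were higher (13.2%) and 10 were lower (26.3%), where called means an adjusted p under 0.05 in limma over all 10916 genes tested. Among all genes tested, 12.4% were called higher and 12.3% lower, or 24.7% in either direction, so the share of higher calls lay near the background and the share of lower calls above it. The genes called higher were Hk2, Pfkm, Aldoc, Eno3 and Mdh1. Those called lower were Pfkl, Pfkp, Pfkfb3, Tpi1, Pgk1, Pgam1, Ldha, Slc16a1, Idh2 and Ogdh. Of the other 23 genes, none passed, and at an unadjusted p under 0.05 the counts were 7 higher and 12 lower in all. Arrays of the groups did not overlap for 2 genes that were higher, Hk2 and Pfkm, and for 6 that were lower, Pfkl, Pfkfb3, Tpi1, Pgk1, Pgam1 and Ogdh, against 7.64% and 7.37% of all tested genes. The median log2 difference, CD34+ minus CD34-, was -0.07 over the 38 genes and -0.00 over all tested genes.

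**Figure D1:**
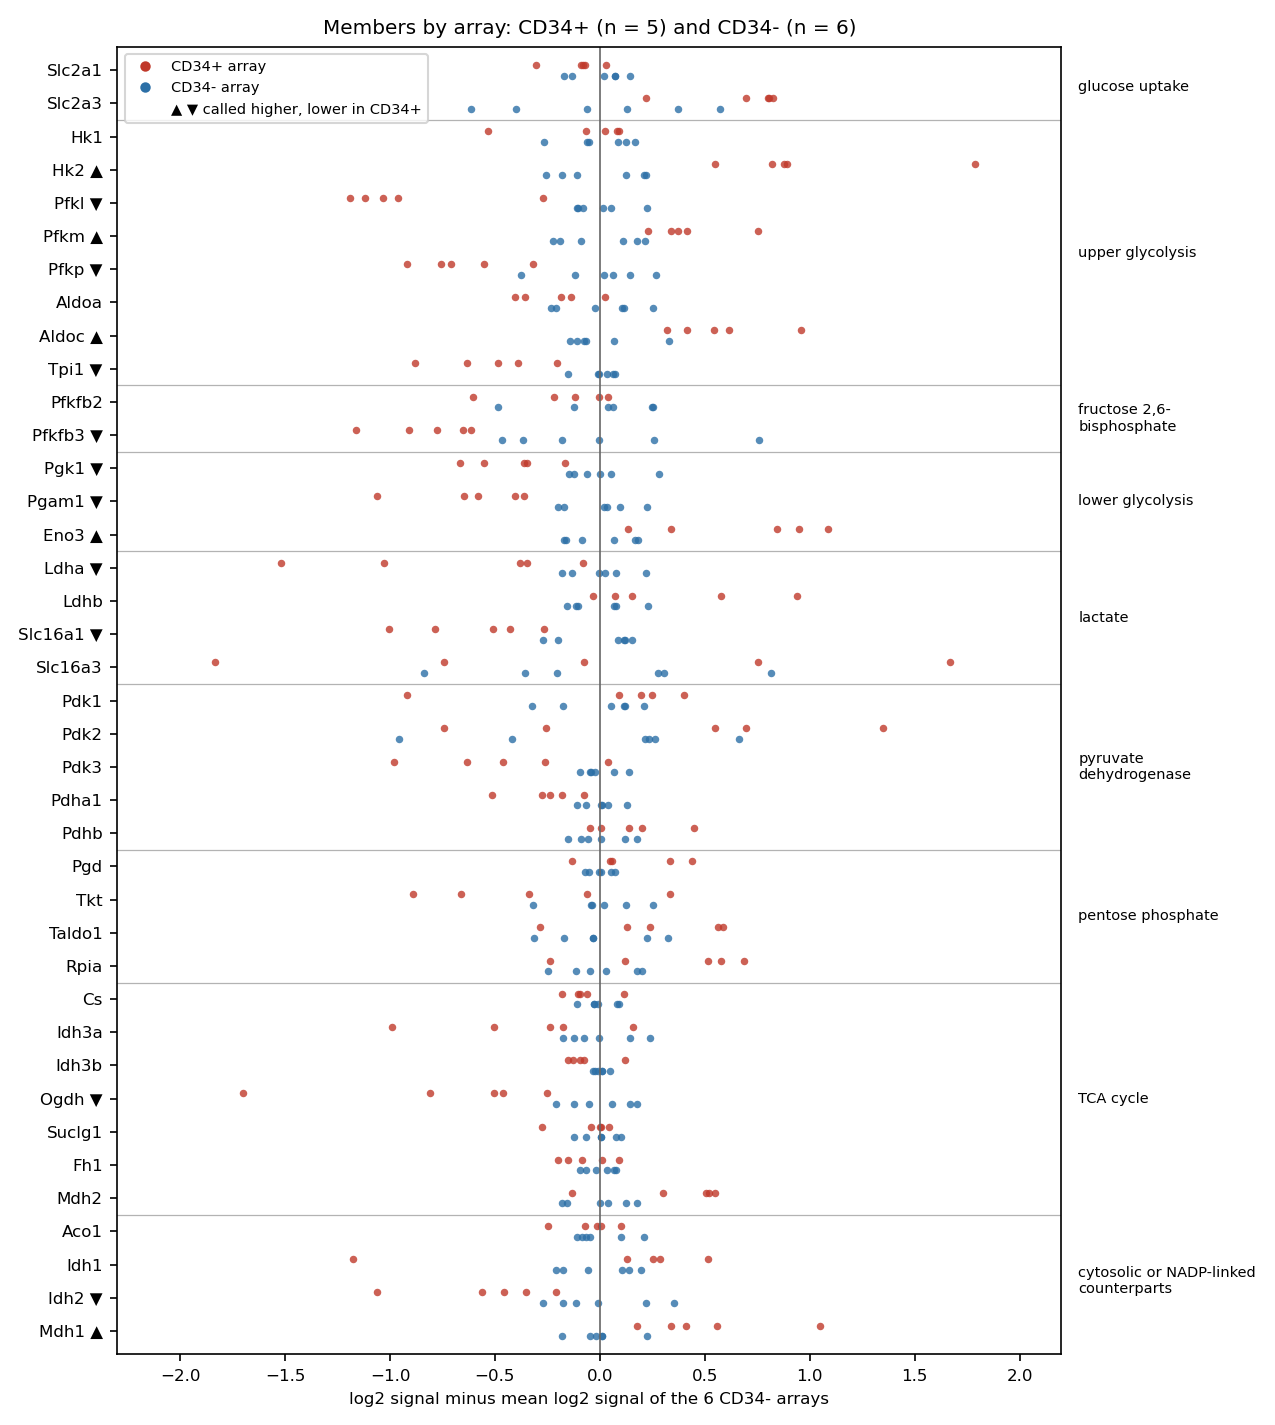
Log2 signal of the 39 pathway genes with a probe set on each array, as the distance from the mean of the 6 CD34- arrays, grouped by role. Red points are the 5 CD34+ arrays and blue points the 6 CD34- arrays, and triangles mark the 5 genes called higher and the 10 called lower. Hk2 lies to the right of all CD34- arrays on every CD34+ array, whereas Pfkl, Tpi1, Pgk1 and Pgam1 lie to the left.

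The number of calls changed with the scaling of the arrays and with an adjustment for the actin control. When every array was shifted to the same median instead, the median of all tested genes moved to -0.48 and the calls over all genes went from 1350 higher and 1347 lower (50.1% higher) to 396 higher and 5212 lower (7.06% higher). The pathway genes then gave 1 higher and 23 lower, and the Hk2 difference was 0.50 while the median gene stood at -0.48. Over all genes, 42.5% of calls were higher after quantile normalization and 38.5% among the brightest 40% of genes. When the fit was adjusted for the actin ratio, 76.2% of calls over all genes were higher, no pathway gene was called higher and 1 was called lower, with unadjusted counts of 2 and 5. That gene was Tpi1 at -0.80 (limma adjusted p = 0.0312). The sizes of the other differences moved unevenly in this fit: Pfkl went from -0.91 to -0.86, Pgam1 from -0.61 to -0.55 and Pfkfb3 from -0.82 to -1.08, whereas Hk2 went from 0.98 to 0.51, Eno3 from 0.67 to 0.07 and Idh2 from -0.53 to -0.08. The median standard error of a pathway gene's log2 difference was 0.147 without the adjustment and 0.219 with it. An adjustment for the Gapdh ratio, chosen after seeing the data, left 4 pathway genes higher and 8 lower, all among the 15. In that fit 9.01% of all tested genes were called higher and 8.94% lower. The adjustment ended the calls of Pfkm (0.44, limma adjusted p = 0.0572), Ldha (-0.51, limma adjusted p = 0.072) and Idh2 (-0.48, limma adjusted p = 0.0713).

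**Figure D2:**
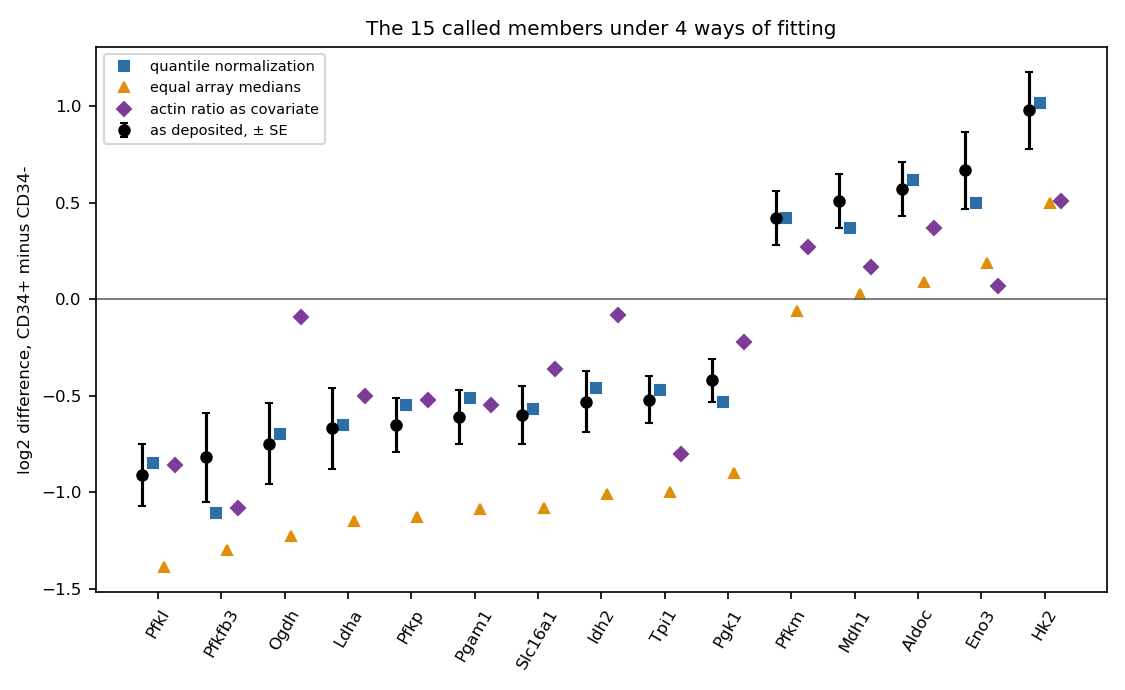
Log2 difference, CD34+ minus CD34-, of the 15 called pathway genes with the deposited values (black circles, bars are ± 1 SE), after quantile normalization (blue squares), with equal array medians (orange triangles) and adjusted for the actin ratio (purple diamonds). The 10 genes called lower stay below 0 in all 4 fits, Hk2 stays above 0, and Pfkm falls to -0.06 with equal medians.

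Glucose enters keratinocytes through the transporters encoded by Slc2a1 and Slc2a3, and neither was called. The log2 signal of Slc2a1, the main glucose transporter of epidermis, averaged 12.28 ± 0.12 (SD, n = 5) in CD34+ and 12.38 ± 0.12 (SD, n = 6) in CD34- cells. For Slc2a3, a transporter of high affinity, the CD34+ arrays gave 7.04, 7.62, 7.51, 7.62 and 7.64 and the CD34- arrays 6.21 at the lowest, 6.85 at the median and 7.39 at the highest. Only the lowest CD34+ array lay within the range of the CD34- arrays, and the difference of 0.67 (SE 0.26) did not pass the test (limma adjusted p = 0.0693). The dimmer probe sets of Slc2a1 differed more than the brightest one, by -0.47 (limma adjusted p = 0.036) and -0.97 (limma adjusted p = 0.000593), and the mean of its probe sets was called lower at -0.52 (limma adjusted p = 0.00869).

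Hexokinases trap glucose in the cell as glucose 6-phosphate. Hk2, the regulated hexokinase of muscle, fat and many proliferating cells, read 11.30, 10.34, 10.06, 10.39 and 10.41 on the CD34+ arrays, and 9.26, 9.52 and 9.73 at the lowest, median and highest CD34- array. Every CD34+ array exceeded every CD34- array, and array 1 stood highest. The difference was 0.98 (SE 0.20, limma adjusted p = 0.00342), a 1.98-fold higher signal. Hk1, the hexokinase found in most tissues, was 10.74 ± 0.26 (SD, n = 5) in CD34+ and 10.82 ± 0.16 (SD, n = 6) in CD34- cells and was not called (limma adjusted p = 0.699).

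Phosphofructokinase, the committing step of glycolysis, is built from subunits named after liver, platelet and muscle, and its subunit genes moved in both directions. Pfkl, the liver-type subunit, had log2 signals of 9.80, 10.03, 10.72, 9.88 and 9.96 in CD34+ cells and 10.88, 10.96 and 11.22 at the lowest, median and highest CD34- array. All CD34+ arrays lay below all CD34- arrays, with array 3 nearest to them, and the signal fell by 0.91 on the log2 scale (SE 0.16, limma adjusted p = 0.0016), or 1.89-fold. Pfkp, the platelet-type subunit, gave 11.34, 11.54, 11.94, 11.49 and 11.70 in CD34+ and 11.88, 12.29 and 12.52 in CD34- cells. Array 3 of the CD34+ cells overlapped with the lowest CD34- array, and the difference was -0.65 (SE 0.14, limma adjusted p = 0.00525). Pfkm, the muscle-type subunit, ran the other way, with 10.09, 9.67, 9.57, 9.75 and 9.71 in CD34+ and 9.11, 9.35 and 9.55 in CD34- cells. The groups just failed to overlap, and the difference of 0.42 (SE 0.14, limma adjusted p = 0.0417) was the least stable of the calls: it passed in 2 of the 11 fits that left out an array.

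The Pfkfb enzymes make and break the sugar phosphate that activates phosphofructokinase. Pfkfb3, an isoenzyme that favours its synthesis, read 7.68, 7.52, 7.38, 7.13 and 7.64 in CD34+ cells and 7.83, 8.20 and 9.06 at the lowest, median and highest CD34- array. The groups did not overlap, and the difference was -0.82 (SE 0.23, limma adjusted p = 0.0192). Its other tested probe set was dimmer and gave 0.79 (limma adjusted p = 0.191), and the mean of both gave -0.02 (limma adjusted p = 0.972), which ends the call. The call also ended with the replicate number of the labels as a block (-0.67, limma adjusted p = 0.0614). Pfkfb2, an isoenzyme known from heart that Akt can phosphorylate, was not called, at -0.18 (SE 0.16, limma adjusted p = 0.433).

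Aldolase splits the sugar, and triose phosphate isomerase interconverts the products. Aldoc, the brain-type aldolase, gave 10.79, 10.16, 10.38, 10.25 and 10.45 in CD34+ cells and 9.69, 9.77 and 10.16 in CD34- cells. The lowest CD34+ array met the highest CD34- array, and the difference was 0.57 (SE 0.14, limma adjusted p = 0.0112), a call lost with the mean of its probe sets (limma adjusted p = 0.231). Aldoa, the muscle-type aldolase found in most tissues, was not called on its brightest probe set (-0.21, SE 0.12, limma adjusted p = 0.206). Tpi1, the isomerase, read 12.59, 12.40, 12.16, 11.91 and 12.31 in CD34+ cells and 12.64, 12.81 and 12.87 in CD34- cells. The groups did not overlap, and the difference was -0.52 (SE 0.12, limma adjusted p = 0.0082). Tpi1 was the one called gene that passed in all 15 other fits listed for it, the one adjusted for the actin ratio included, and it also passed with each array left out. Its other tested probe sets gave -0.72 (limma adjusted p = 0.0045) and -0.14 (limma adjusted p = 0.509). The probe set at -0.14 was almost as bright as the one used, with means of 12.47 and 12.56 over all arrays.

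In lower glycolysis, 2 genes fell and 1 rose of the 3 tested. Pgk1, which makes the first ATP of the pathway, read 13.40, 13.72, 13.52, 13.70 and 13.90 in CD34+ cells and 13.92, 14.04 and 14.35 at the lowest, median and highest CD34- array. The gap between the groups was narrow but complete, and the difference was -0.42 (SE 0.11, limma adjusted p = 0.0186). Both of its other tested probe sets were called lower too, each by 0.82 (limma adjusted p = 0.00212 and 0.018). With the replicate number of the labels as a block Pgk1 lost its call (-0.41, limma adjusted p = 0.066). Pgam1, a phosphoglycerate mutase, gave 11.56, 10.86, 11.35, 11.28 and 11.52 in CD34+ and 11.73, 11.95 and 12.15 in CD34- cells. It did not overlap between the groups and differed by -0.61 (SE 0.14, limma adjusted p = 0.00701). Eno3, the muscle-type enolase, was higher, with 8.97, 8.84, 8.73, 8.23 and 8.02 in CD34+ and 7.71, 7.88 and 8.07 in CD34- cells. Its lowest CD34+ array lay inside the CD34- range, and the difference was 0.67 (SE 0.20, limma adjusted p = 0.0248), a call that was kept in 8 of the 11 fits without an array and lost without CD34+ array 2 and without CD34- arrays 3 or 4.

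Because Pfkm and Eno3 are named for muscle, 12 skeletal muscle genes were set beside them. Of these only Mylpf, a myosin light chain, was bright enough to be tested, and it was not called (-0.36, limma adjusted p = 0.328). The dimmer genes have no p-value, and all but Actn3 (-0.24) and Myh2 (-0.29) had a higher mean on CD34+ arrays. Those differences ran from 0.18 for Myh1 to 1.94 for Myh4. The summed log2 signal of the 12 was 8.99 to 10.11 on CD34+ arrays and 8.58 to 9.11 on CD34- arrays. Ckm, the muscle creatine kinase, was dim in both, at 5.97 ± 0.83 (SD, n = 5) and 5.03 ± 0.95 (SD, n = 6). The genes of this list are named here after their values were seen. The part of muscle RNA in the values of Pfkm and Eno3 was not tested.

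Gapdh, the glyceraldehyde phosphate dehydrogenase between Tpi1 and Pgk1 in the pathway, was read by 3 control probe sets along its transcript. The 3-prime probe set gave 13.47, 13.16, 13.40, 13.45 and 13.40 on CD34+ arrays, with a mean of 13.38 ± 0.13 (SD, n = 5), against 13.68 ± 0.10 (SD, n = 6) for CD34-. All CD34+ arrays lay below all CD34- arrays, and the difference was -0.30 (two-sided exact permutation p = 0.00433, the smallest that 5 against 6 arrays can give, and 0.0108 adjusted over 5 control measures). The middle probe set differed by -0.29 (exact permutation p = 0.169) and the 5-prime probe set by -0.46 (exact permutation p = 0.0693), neither beyond the spread of the arrays. Other probe sets carry Gapdh together with further symbols and were not tested. Their CD34+ and CD34- means were 13.37 and 13.84, 7.39 and 7.76, and 8.88 and 8.16, so the last ran the other way. The Gapdh 3-prime minus 5-prime ratio was 3.32 ± 0.34 (SD, n = 5) and 3.16 ± 0.18 (SD, n = 6), with an exact permutation p of 0.338, while the same ratio of actin was 3.95 ± 0.99 (SD, n = 5) and 2.43 ± 0.19 (SD, n = 6), with an exact permutation p of 0.00433.

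**Figure D3:**
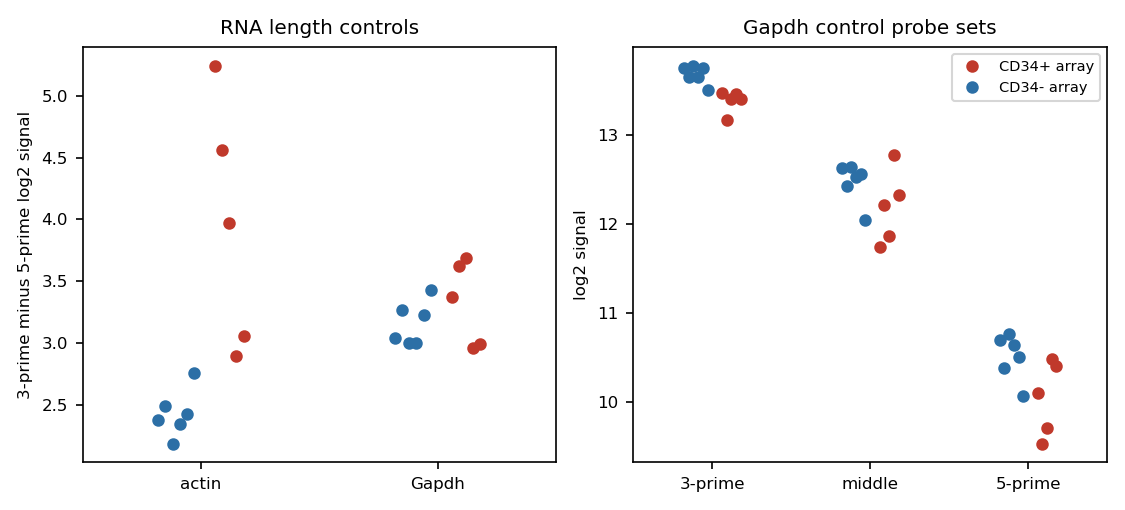
Left, 3-prime minus 5-prime log2 signal of the actin and Gapdh controls on each array. Right, log2 signal of the Gapdh control probe sets, with CD34+ arrays in red and CD34- arrays in blue. The actin ratio separates the groups, at 2.90 or more against 2.76 or less, the Gapdh ratio does not, and the 3-prime Gapdh signal is lower on every CD34+ array.

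Lactate dehydrogenase and the monocarboxylate transporters decide how much pyruvate leaves the cell as lactate. Ldha, the subunit that favours lactate, had log2 signals of 13.27, 11.83, 12.32, 13.00 and 12.97 in CD34+ cells and 13.17, 13.36 and 13.57 at the lowest, median and highest CD34- array. CD34+ arrays 2 and 3 were far below the rest, array 1 lay inside the CD34- range, and the difference was -0.67 (SE 0.21, limma adjusted p = 0.0336). It passed in 4 of the 11 fits without an array, with differences from -0.82 to -0.46, and was lost without CD34+ arrays 2 or 3 and without any of CD34- arrays 1 to 5. Ldhb, the subunit that favours pyruvate, was not called, at 0.34 (SE 0.17, limma adjusted p = 0.141). Its other tested probe sets were almost as bright, gave 0.17, -0.01 and -0.02, and were not called either. Slc16a1, the main lactate transporter of many cells, gave 9.18, 9.92, 9.40, 9.68 and 9.75 in CD34+ and 9.91, 10.28 and 10.34 in CD34- cells. Array 2 of the CD34+ cells just overlapped with the lowest CD34- array, and the difference was -0.60 (SE 0.15, limma adjusted p = 0.0131). Slc16a3, a lactate exporter of strongly glycolytic cells, was dim and variable, at 5.79 ± 1.35 (SD, n = 5) and 5.83 ± 0.59 (SD, n = 6), and was not tested.

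Pyruvate dehydrogenase and the kinases that switch it off gave no call among 5 genes tested, with 0 higher and 2 lower at an unadjusted p under 0.05 in limma. Pdk1, a kinase of the complex, was 12.82 ± 0.53 (SD, n = 5) in CD34+ and 12.82 ± 0.21 (SD, n = 6) in CD34- cells. The unadjusted genes were Pdk3, another of the kinases, at -0.46 (SE 0.17, limma adjusted p = 0.0609), and Pdha1, the catalytic alpha subunit, at -0.26 (SE 0.11, limma adjusted p = 0.0891). Pdk2 was 0.32 higher (SE 0.40) and Pdhb, the beta subunit, 0.15 higher (SE 0.11), both within the spread of the arrays.

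The pentose phosphate genes were not called either: 0 of 4 tested in each direction in limma, and also 0 at an unadjusted p under 0.05. Pgd, the second NADPH-producing dehydrogenase of the pathway, differed by 0.15 (SE 0.11), Tkt, transketolase, by -0.32 (SE 0.19), Taldo1, transaldolase, by 0.25 (SE 0.17), and Rpia, a ribose phosphate isomerase, by 0.33 (SE 0.17). The limma adjusted p-values were 0.352, 0.214, 0.287 and 0.154 in that order.

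In the TCA cycle, Ogdh was the single gene called of 7 tested, and it was lower, a share of 14.3% that lies near the 12.3% of all tested genes called lower. Ogdh, the first subunit of the oxoglutarate dehydrogenase complex, read 9.02, 9.91, 10.47, 10.22 and 10.26 in CD34+ cells and 10.52, 10.73 and 10.90 at the lowest, median and highest CD34- array. The groups did not overlap, array 1 was the lowest, and the difference was -0.75 (SE 0.21, limma adjusted p = 0.0223). With the actin covariate it shrank to -0.09. Cs, citrate synthase, was not called on its brightest probe set, at 13.75 ± 0.11 (SD, n = 5) and 13.82 ± 0.08 (SD, n = 6), but was called lower as the mean of its probe sets (-0.40, limma adjusted p = 0.0162). Suclg1, a subunit of succinyl-CoA ligase, Fh1, fumarase, and Idh3b, a subunit of the NAD-linked isocitrate dehydrogenase, differed by -0.06, -0.07 and -0.07. Mdh2, the mitochondrial malate dehydrogenase, was 0.35 higher (SE 0.13, limma adjusted p = 0.0651), and Idh3a, the catalytic subunit beside Idh3b, was -0.35 (SE 0.17, limma adjusted p = 0.15). The other tested probe sets of Idh3a were dimmer and ran the other way, at 0.28, 0.12 and 0.23, and none was called.

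Among the 4 counterparts of these enzymes in the cytosol or linked to NADP, 1 was higher and 1 lower. Mdh1, the cytosolic malate dehydrogenase of the malate shuttle, gave 14.71, 14.07, 13.99, 13.83 and 14.21 in CD34+ and 13.47, 13.65 and 13.88 in CD34- cells. Array 4 of the CD34+ cells overlapped with the highest CD34- array, and the difference was 0.51 (SE 0.14, limma adjusted p = 0.0194). Its other tested probe sets gave 0.10 and 0.04, neither was called, and the call was lost with the mean of its probe sets (limma adjusted p = 0.181). Idh2, the mitochondrial NADP-linked isocitrate dehydrogenase, read 9.88, 10.38, 10.59, 10.49 and 10.73 in CD34+ and 10.67, 10.88 and 11.30 in CD34- cells. The highest CD34+ array overlapped with the CD34- range, the difference was -0.53 (SE 0.16, limma adjusted p = 0.0324), and the call was kept in 6 of the 11 fits without an array. It was lost without CD34+ arrays 1 or 2 and without CD34- arrays 1, 3 or 5. Idh1, its cytosolic counterpart, differed by 0.00 (SE 0.24), with CD34+ array 1 at 11.93 and the other CD34+ arrays at 13.24 to 13.63. Aco1, the cytosolic aconitase that doubles as an iron sensor, differed by -0.04 (SE 0.11).

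Isoenzymes of a step were also compared within each array, as the log2 signal of one gene minus that of the other. The level of such a ratio has no meaning between probe sets, but its change between groups can be compared, and a scaling of the whole array cancels out of it. A difference in RNA length need not cancel out, and the ratios were not adjusted for the actin control, so its part in them was not tested. The 14 pairs include Pdhb with Pdha1 and Idh3b with Idh3a, which are subunits of the same enzyme rather than isoenzymes. Of the 14 pairs, 6 passed the exact permutation test at an adjusted p under 0.05. The muscle-type against the liver-type phosphofructokinase, Pfkm minus Pfkl, was 1.34 higher in CD34+ cells. Hk2 minus Hk1 was 1.07 higher, Ldhb minus Ldha 1.01, Aldoc minus Aldoa 0.78 and Pdhb minus Pdha1 0.41. These 5 ratios did not overlap between the groups, each with a two-sided exact permutation p of 0.00433, the smallest possible, and 0.0121 after adjustment over the 14 pairs.

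The ratios differed in how evenly the CD34+ arrays carried them. Pfkm minus Pfkl was 0.29, -0.36, -1.16, -0.13 and -0.25 on the CD34+ arrays, with array 3 nearest to the CD34- arrays, whose values ran from -2.08 to -1.38. Ldhb minus Ldha was -1.80, 0.06, -0.07, -1.72 and -1.58, so arrays 2 and 3 stood apart from the other CD34+ arrays, while the CD34- arrays lay between -2.22 and -1.95. Slc2a3 minus Slc2a1 was 0.77 higher with overlap (exact permutation p = 0.0173, adjusted 0.0404), and this call was lost in 10 of the 11 comparisons without an array and after quantile normalization (0.30, adjusted exact permutation p = 0.369). The other 8 pairs did not pass, among them Pfkp minus Pfkl at 0.26 (exact permutation p = 0.0649) and Mdh2 minus Mdh1 at -0.16 (exact permutation p = 0.325). When each gene was the mean of its probe sets, none of the 14 pairs passed, with 4 at an unadjusted exact permutation p under 0.05 and a lowest adjusted p of 0.0606.

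**Figure D4:**
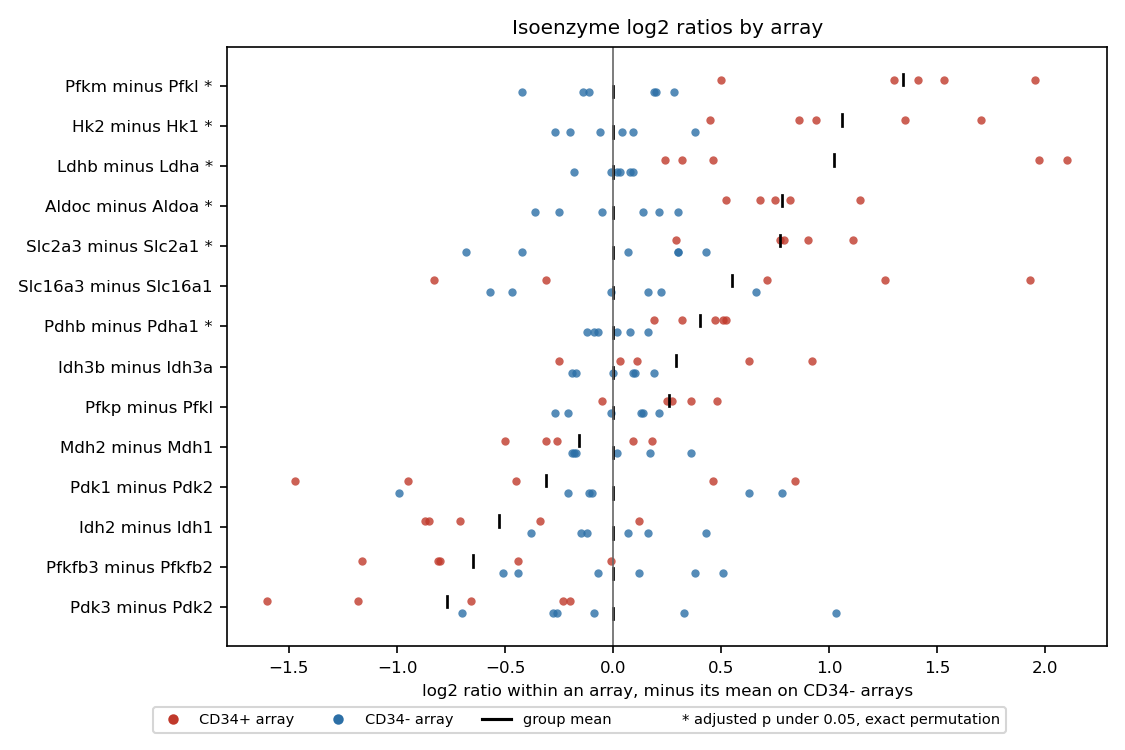
Log2 ratio of isoenzymes on each array as the distance from its mean on the CD34- arrays. CD34+ arrays are in red, CD34- arrays in blue, and black ticks mark the group means. Pdhb with Pdha1 and Idh3b with Idh3a are subunits of the same enzyme. Asterisks mark the 6 pairs with an adjusted exact permutation p under 0.05. Pfkm minus Pfkl, Hk2 minus Hk1, Ldhb minus Ldha, Aldoc minus Aldoa and Pdhb minus Pdha1 show no overlap, and Slc2a3 minus Slc2a1 does.

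Probe sets of the same gene often disagreed. Of the 93 probe sets of pathway genes 80 were tested, and 7 were called higher and 22 lower, against 20.7% of all probe sets called in either direction. The share of all probe sets in each direction was not counted, so neither the 7 nor the 22 has a background of its own. Of the 15 called genes, 8 had another tested probe set: at least 1 of these was called the same way for Pfkl, Tpi1, Pgk1 and Ogdh, none was for Pfkp, Pfkfb3 and Mdh1, and that of Idh2 was called the opposite way, at 0.56 (limma adjusted p = 0.038). The dimmer Ogdh probe set averaged 4.97 on CD34+ and 7.09 on CD34- arrays. It was bright enough for the test only through the CD34- arrays and adds little to the call of Ogdh. The other tested probe sets of Pfkl gave -1.06 (limma adjusted p = 0.000697) and 0.44 (limma adjusted p = 0.258). Of the 23 genes not called, 15 had another tested probe set, and 6 of these had a dimmer one that was called. Tkt had one at -0.92 (limma adjusted p = 0.00584), Cs had 2 at -0.58 and -0.56 (limma adjusted p = 0.00393 and 0.0288), Pgd had one at -0.60 (limma adjusted p = 0.0141), and Slc2a1 had the 2 given above. Pdk1 had one at 1.06 (limma adjusted p = 0.00812). Aldoa had one called lower, at -0.61 (limma adjusted p = 0.0143), and one called higher, at 0.52 (limma adjusted p = 0.0119). Which transcripts or ends these probe sets read is not given in the sources used here.

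**Figure D5:**
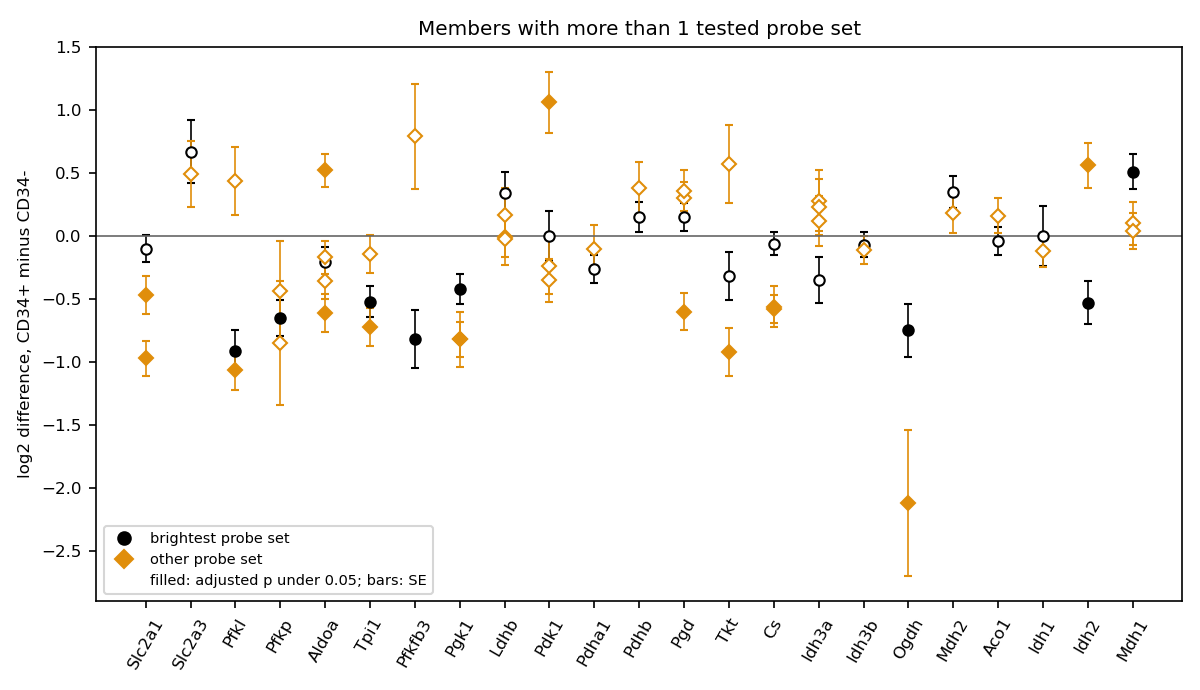
Log2 difference, CD34+ minus CD34-, of each tested probe set of the pathway genes that have more than 1, with bars of ± 1 SE. Black circles are the brightest probe set, orange diamonds the others, and filled symbols have an adjusted p under 0.05. Idh2 and Aldoa have filled symbols on both sides of 0, while Pgk1 and Ogdh have all of theirs below 0. The dimmer Ogdh probe set was near the floor on CD34+ arrays, at a mean of 4.97.

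The remaining genes of the same pathways were counted from lists, beside 12.4% of all tested genes called higher and 12.3% called lower. Of 19 other glycolysis genes tested, 3 were higher and 2 lower, which lies near these shares, with a median difference of 0.13. The smallest p among the higher ones belonged to Slc2a4, the insulin-regulated glucose transporter, at 0.86 (SE 0.21, limma adjusted p = 0.0114), and among the lower ones to Pkm, the pyruvate kinase that ends glycolysis, at -0.54 (SE 0.16, limma adjusted p = 0.0252). Around pyruvate dehydrogenase 0 were higher and 2 lower of 8, with a median of -0.35, led by Mpc1, a subunit of the mitochondrial pyruvate carrier, at -0.71 (SE 0.20, limma adjusted p = 0.0228). None of 5 other pentose phosphate genes was called in limma, with 1 higher and 1 lower at an unadjusted p under 0.05. Of 17 other TCA cycle genes, 2 were higher, near the share of all tested genes, and 5 lower, with a median of -0.19. Sdhd, a membrane anchor of succinate dehydrogenase, was the first of the lower ones at -1.09 (SE 0.18, limma adjusted p = 0.00107), and Me2, a mitochondrial malic enzyme, the first of the higher ones at 0.77 (SE 0.25, limma adjusted p = 0.0393).

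Hypoxia response genes outside metabolism were listed because hypoxia-inducible factors share targets with glycolysis. Of 17 tested, 0 were higher and 7 lower in CD34+ cells, with a median of -0.48 against -0.00 over all genes. Among all tested genes 12.4% were called higher and 12.3% lower. Egln1, an oxygen-sensing prolyl hydroxylase, had the smallest p, at -0.63 (SE 0.13, limma adjusted p = 0.00431). Hif1a, one of the factors themselves, was 13.49 ± 0.26 (SD, n = 5) and 13.43 ± 0.12 (SD, n = 6) and was not called (limma adjusted p = 0.716). Epas1, another of these factors, was called lower at -1.48 (SE 0.40, limma adjusted p = 0.0172). Its signal was 10.56 ± 1.14 (SD, n = 5) in CD34+ and 12.05 ± 0.40 (SD, n = 6) in CD34- cells. Hif1a and Epas1 are named here after their values were seen.

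Markers of other skin cells moved with the groups, and their counts stand beside 12.4% of all tested genes called higher and 12.3% called lower. T cell genes were lower on CD34+ arrays for all 6 that were tested, and the summed log2 signal of that list was 9.45 to 11.54 on CD34+ arrays and 12.07 to 12.84 on CD34- arrays. Of the myeloid list 5 of 10 were higher and 0 lower, with sums of 12.80 to 14.16 and 12.26 to 13.00, and of the fibroblast list 3 of 4 were higher, with sums of 12.77 or more on CD34+ arrays and of 11.71 to 12.95 on CD34- arrays. Cd7 of the T cell list, with a CD34+ mean of 5.10, was bright enough for the test only through the CD34- arrays. C1qb of the myeloid list and Pdgfra of the fibroblast list were so only through the CD34+ arrays. Their CD34- means were 6.38 and 6.54. The calls of these genes add little to the counts, and they are named after their values were seen. The endothelial and mural list had 1 gene tested, Acta2, a smooth muscle actin, which was higher, with sums of 9.33 to 12.04 and 8.73 to 9.51. The melanocyte list had 1 of 7 higher and the suprabasal list 3 higher and 2 lower of 8, while the sebaceous list had 0 of 5 called. Adipocyte and erythroid genes were dim, with 1 and 0 tested and none called. The part of these cells in the pathway genes was not tested.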

How the data were processed

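The authors deposited 1 log2 value per probe set and array, and the submitters' processing notes name MAS5. Neither its version nor its settings are given in the sources used here. Back on the linear scale, the mean after trimming 2% at each end was 500.002 to 500.004 on all 11 arrays, and no further scaling was applied. Symbols came from the platform annotation of 45101 probe sets: 64 are controls, 34945 of the others carry 1 symbol and 932 several. A gene was its brightest probe set by mean, and the dimmest 40% of genes were left out (lowest mean kept 6.59). Groups came from the sample titles. CD34+ and CD34- arrays were compared with limma 3.58.1 in R 4.3.3 (linear model, intensity trend, prior degrees of freedom 5.5), with Benjamini-Hochberg adjustment over 10916 genes. Adjusted p-values of single probe sets come from the same limma model over all probe sets. Isoenzyme ratios and controls were compared with exact permutation tests, two-sided. A summed level is log2 of the summed linear signal of a list.

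The pathway genes and the lists were chosen with earlier results of these data known. All pathway genes could be named, and of other lists the called gene with the smallest p in each direction. Other normalizations, filters, probe set rules, moderation, thresholds, tests, covariates and leaving out arrays were tried. Keeping the control probe sets and the Gapdh ratio as a covariate were chosen after seeing the data. The number of arrays limits the precision, with a median SE of 0.187. Tested on simulated data for the comparison of 10916 genes, the limma step recovered 15 of 50 genes changed 1.5-fold, 29 of 50 changed 2-fold and 50 of 50 changed 4-fold, with 2 false calls in all.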

Additional observations from a re-analysis of the deposited data

Results flagged for a closer look

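Of 82 sets of values, one for each pathway gene or control and group, 8 held an array that stood apart from the rest of its group, where chance alone marks about 1 in 20. All 8 were on CD34+ arrays, and 5 of them on array 1. On that array Hk2 read 11.30, against 10.06 to 10.41 on the other CD34+ arrays. The signal was low there for Slc2a3 at 7.04 (others 7.51 to 7.64), Pdk1 at 11.90 (others 12.91 to 13.22), Idh1 at 11.93 (others 13.24 to 13.63) and Suclg1 at 11.55 (others 11.78 to 11.87). On array 2 Hk1 read 10.29 (others 10.76 to 10.91). On array 3 Pfkl read 10.72 (others 9.80 to 10.03) and Idh3b 12.24 (others 11.97 to 12.04). CD34+ array 1 also had the highest actin ratio, 5.24. Whether that ratio and the single arrays are linked was not tested. Without array 1 the calls among the pathway genes were 5 higher and 11 lower, against 11% and 11.7% of all tested genes.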

How the results depend on the processing

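Of the 15 called genes, 11 kept their call without each array in turn, and Pfkm, Ldha, Idh2 and Eno3 did not. Genes called higher numbered 3 to 6 and lower 8 to 11 in these fits. The lowest counts of higher calls came without CD34+ array 2 and without CD34- arrays 3 or 4, with 3 each. Over all genes 983 to 1363 were higher and 896 to 1415 lower, and without CD34- array 4 the lower calls fell from 1347 to 896. The median of the pathway genes stayed between -0.11 and -0.06. With equal medians it was -0.55, with 1 higher and 23 lower, 396 and 5212 over all genes, and Pfkm turned to -0.06. After quantile normalization 3 were higher and 10 lower, against 8.92% and 12.1% of all tested genes. With the mean of probe sets 3 were higher and 9 lower, against 8.91% and 7.17% of all tested genes, of which 783 were lower. Idh2 then turned to 0.01, Pfkfb3, Aldoc and Mdh1 lost their calls, and Slc2a1 and Cs gained one. In that setting 0 isoenzyme pairs passed, against 5 to 8 without an array. At an adjusted p under 0.01 there were 1 higher and 4 lower, with 548 and 456 over all genes, as a stricter threshold gives. Among the brightest 40% of genes 743 were higher. With the actin covariate there were 0 higher and 1 lower, with 96 and 30 over all genes. Without CD34+ arrays 1 and 2 there were 3 higher, and 889 over all genes, and Pfkm, Eno3, Pgk1 and Idh2 lost their calls. With the replicate number as a block 3 were higher and 7 lower, against 9.55% and 9.08% of all tested genes. Pfkm, Eno3, Pfkfb3, Pgk1 and Idh2 lost their calls in that fit. The labels share numbers only: deviations of same-numbered arrays correlated at 0.16, 0.02, 0.19, 0.13 and 0.04, all low but positive. The numbers were not taken as pairs in the main fit, and whether they mark a shared isolation was not tested. Where no construction is named, the cause was not tested.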
